A study of Mus musculus with 5 samples.

Results

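Wells with many EGFP reads were set against wells with few in 1 plate-based single-cell sample of mouse kidney. EGFP is a green fluorescent protein from a transgene, so its reads mark the cells that used that transgene. Of 768 wells, 473 held at least 20000 gene reads and at least 1000 genes and were kept. Among these, 194 wells had at least 500 EGFP reads per 1000000 gene reads (EGFP-high), 101 had fewer than 50 (EGFP-low) and 178 lay between (EGFP-middle), so the high and low classes hold 295 of 768 wells. The wells were chosen by their EGFP reads, and the EGFP level is therefore given as a description only.

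The cells came from kidneys of 8-week-old C57/BL6 mice, with 3 mice pooled for the library. The study followed myeloid cells of the kidney after blockage of a ureter and its reversal, and the plates together cover all of its time points, sham surgery (day 0), days 2 and 7 of obstruction, and 7 days after reversal (day 14), without a label here that ties a well or a plate to one. The 4 droplet libraries of the study served here only as a list of gene names. The sources used here do not give the promoter that drives EGFP, the carrier strain, the sort gate of the plates or the meaning of the letter in a plate's name. The 8 plates are called 1A, 2B, 3C, 4C, 5A, 6B, 7C and 8C. All wells belong to 1 sample, so wells and plates are not replicates of a condition, no test was made, and intervals cover counting error only.

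Csf1r encodes the receptor for colony stimulating factor 1 and interleukin 34, a tyrosine kinase on which most tissue macrophages and many monocytes depend. It is read out in macrophages and monocytes, at lower levels in dendritic cells, and its regulatory DNA is widely used to drive reporters in these cells. In the mouse kidney, resident macrophages make complement C1q, monocytes enter from blood after injury, and type 1 and type 2 conventional dendritic cells make up a smaller share of the myeloid cells. Csf1r (ENSMUSG00000024621) is protein coding and lies on chromosome 18 from 61100598 to 61132149 of GRCm38, forward strand.

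EGFP-high wells carried more Csf1r. The median over wells was 2397 counts per 1000000 gene reads (CPM) in EGFP-high, 2025 CPM in EGFP-middle and 205 CPM in EGFP-low wells. Plate 1A held 38 of the 101 EGFP-low wells, and without it the medians were 2498, 2061 and 321 CPM in the same order. The place of the EGFP-middle wells differed between plates: their mean exceeded that of EGFP-high wells on plates 1A (4776 against 1806 CPM), 5A and 8C, and on plate 7C it lay below that of EGFP-low wells (1201 against 1286 CPM). Below 100 CPM of Csf1r were 3 of 194 EGFP-high wells (1.55%, exact binomial 95% interval 0.320 to 4.45%), 12 of 178 EGFP-middle wells (6.74%, 3.53 to 11.5%) and 38 of 101 EGFP-low wells (37.6%, 28.2 to 47.8%). Without plate 1A these were 0 of 174 EGFP-high (upper bound 2.10%), 10 of 169 EGFP-middle (5.92%) and 17 of 63 EGFP-low wells (27.0%, 16.6 to 39.7%). At 1000 CPM or more were 80.9% of EGFP-high (74.7 to 86.2%), 69.1% of EGFP-middle (61.8 to 75.8%) and 32.7% of EGFP-low wells (23.7 to 42.7%). The EGFP-low class thus held both Csf1r-poor wells and 33 wells with Csf1r at 1000 CPM or more.

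Every kept well had at least 1 Csf1r read, in all 3 classes, and the 295 wells left out for depth had some too. The left-out wells had a median of 10 Csf1r reads (up to 63) and a median of 4 EGFP reads (up to 45), at a median of 5926 gene reads. Per 1000000 gene reads, their medians were 1756 for Csf1r and 658 for EGFP, levels like those of kept wells. The left-out wells thus give no background level for either gene.

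Within plates, the mean Csf1r level was higher in EGFP-high wells on each of the 6 plates with at least 5 wells of both classes. On plate 1A the mean was 1806 CPM in 20 EGFP-high wells and 1538 CPM in 38 EGFP-low wells. On plate 2B it was 2611 CPM (36 wells) against 1292 CPM (14 wells), and on plate 3C 3512 CPM (28 wells) against 1769 CPM (12 wells). All 3 of these plates had the higher mean in the EGFP-high wells.

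Plate 4C had 3290 CPM in 36 EGFP-high and 1532 CPM in 13 EGFP-low wells. Plate 6B had 2655 CPM in 19 and 1813 CPM in 7 wells, and plate 7C had 3923 CPM in 20 and 1286 CPM in 11 wells. The log2 ratio of the class means, each plus 1 CPM, had a median of 1.00 over these 6 plates, from 0.23 on plate 1A to 1.61 on plate 7C (SD 0.476). The median was larger than the SD of the plate values. In a pair of wells drawn from both classes of 1 plate, the EGFP-high well had more Csf1r in 76.0% of pairs (median of the 6 plates). The classes overlapped on all 6 plates, and 22 EGFP-low wells of the 8 plates lay above the median of the EGFP-high wells of their plate.

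Plates 5A and 8C had only 3 EGFP-low wells each and did not enter that median. On plate 5A, the mean was 1620 CPM in 9 EGFP-high wells and 2060 CPM in the EGFP-low wells, a log2 ratio of -0.35. On plate 8C, it was 2292 CPM in 26 EGFP-high wells against 99.0 CPM, a log2 ratio of 4.52. Both plates also had the most wells left out, 74 and 59 of their 96, and the EGFP-high wells of plate 8C were shallow (median 29851 gene reads).

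**Figure D1:**
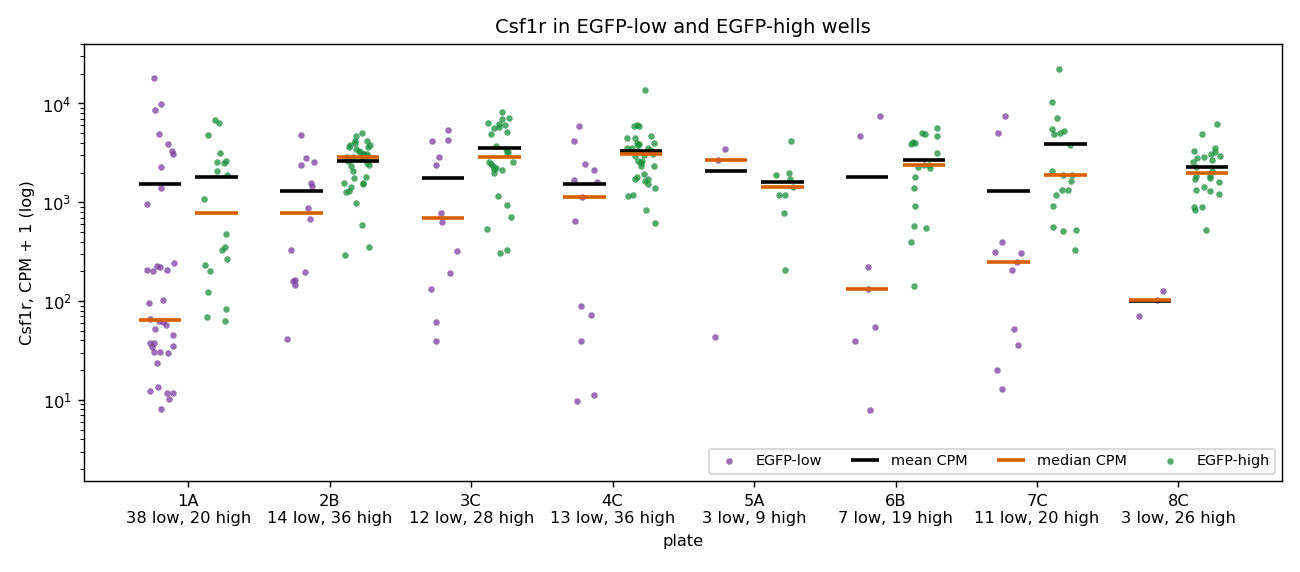
Csf1r level (CPM + 1, log axis) of each EGFP-low (purple) and EGFP-high (green) well on the 8 plates; black bars are class means and orange bars class medians. On plate 1A the means are close (1538 and 1806 CPM) while the medians are 63.0 and 780 CPM.

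Means and medians gave different sizes of the difference, with about as many EGFP-low wells at 1000 CPM or more of Csf1r (33) as below 100 CPM (38). On plate 1A, 10 of the 38 EGFP-low wells lay above the EGFP-high median. Its EGFP-low median was 63.0 CPM, but its highest EGFP-low well had 18010 CPM, above the highest EGFP-high well of that plate (6783 CPM). When each well was given equal weight on the log scale (mean of log2 of CPM + 1, chosen after seeing the data), the high minus low difference had a median of 2.52 over the 6 plates. On that scale Csf1r ranked 7 of 9736 genes tested, whereas on the ratio of means it ranked 3854. The ratio of means ranks genes with rare, very high wells ahead of genes that most wells carry. The log scale has a limit too. On it, lists of general haematopoietic and housekeeping genes had medians of 1.51 and 0.69, against 0.25 for all genes.

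Across all kept wells, Csf1r followed EGFP more closely than nearly any other gene. The Spearman correlation of EGFP with Csf1r was 0.33 on plate 1A, 0.42 on 2B, 0.32 on 3C, 0.33 on 4C, 0.26 on 6B, 0.50 on 7C and 0.41 on 8C, and -0.17 on 5A, over 22 to 82 wells a plate. Its mean over the 8 plates was 0.30 (SD 0.202). Both values in a well share that well's library and depth. Correlation with EGFP averaged 0.050 for total gene reads and 0.173 for the number of genes at 50 CPM or more. Within EGFP-high wells alone, the mean correlation of EGFP with Csf1r was 0.111, from -0.33 on plate 5A (9 wells) to 0.54 on plate 8C (26 wells). It was 0.050 without plate 8C and 0.174 without plate 5A.

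**Figure D2:**
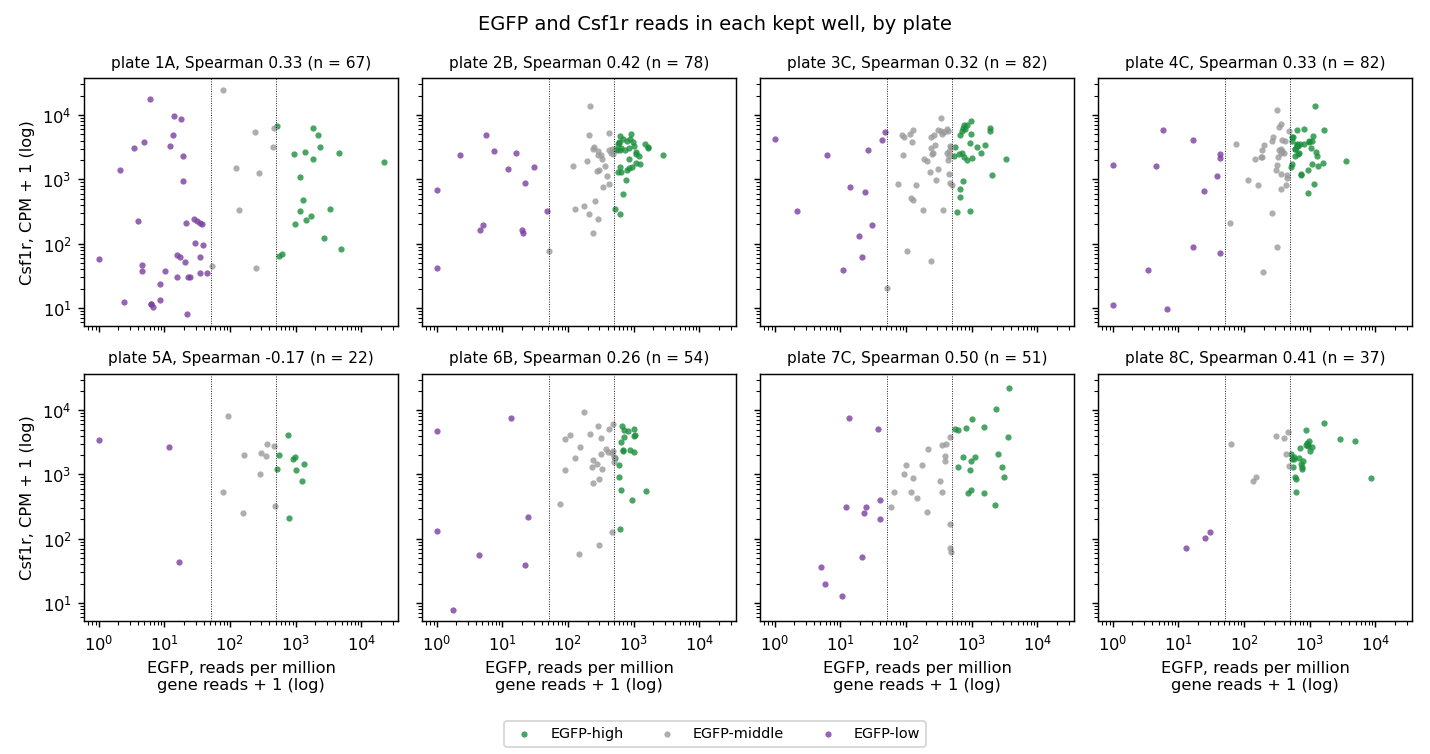
EGFP (reads per 1000000 gene reads + 1, log axis) against Csf1r (CPM + 1, log axis) in each kept well, 1 panel a plate, coloured by class, with dotted lines at the class limits of 50 and 500. Wells above 1000 CPM of Csf1r occur in the EGFP-low class on every plate except 8C.

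Csf1r ranked second of 9736 genes by this mean correlation, and Tyrobp ranked first at 0.31. Tyrobp encodes DAP12, the adaptor of activating receptors such as TREM2. The next genes in order, leaving out ribosomal and mitochondrial genes, were Ctss (cathepsin S, a lysosomal protease, 0.29), Fth1 (ferritin heavy chain, 0.28), Fcer1g (the Fc receptor common gamma chain, 0.26), H3f3a (histone H3.3, 0.26), Ftl1 (ferritin light chain, 0.26), Smim14 (0.26), Alox5ap (the 5-lipoxygenase activating protein, 0.24) and Eef1a1 (a translation elongation factor, 0.24). The median gene stood at 0.015, and 5% of genes exceeded 0.119. Genes entered this order with reads in as few as 10 wells, whereas every kept well had a Csf1r read. A rank among genes read as widely as Csf1r was not made. Reads of Fth1, Ftl1, H3f3a and Eef1a1 can be shared with near-identical copies, so their counts are less certain. Eef1a1 is a gene of general translation, and the correlation of the number of well-covered genes with EGFP stands beside it above.

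Without plate 5A, Csf1r ranked first, and leaving out any other plate gave ranks from 3 to 9, the lowest without plate 7C. Among wells with at least 600 genes at 50 CPM or more, the correlation was 0.22 and its rank 19. These ranks describe 1 sample, and neighbours in the order differ by less than the spread over plates.

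**Figure D3:**
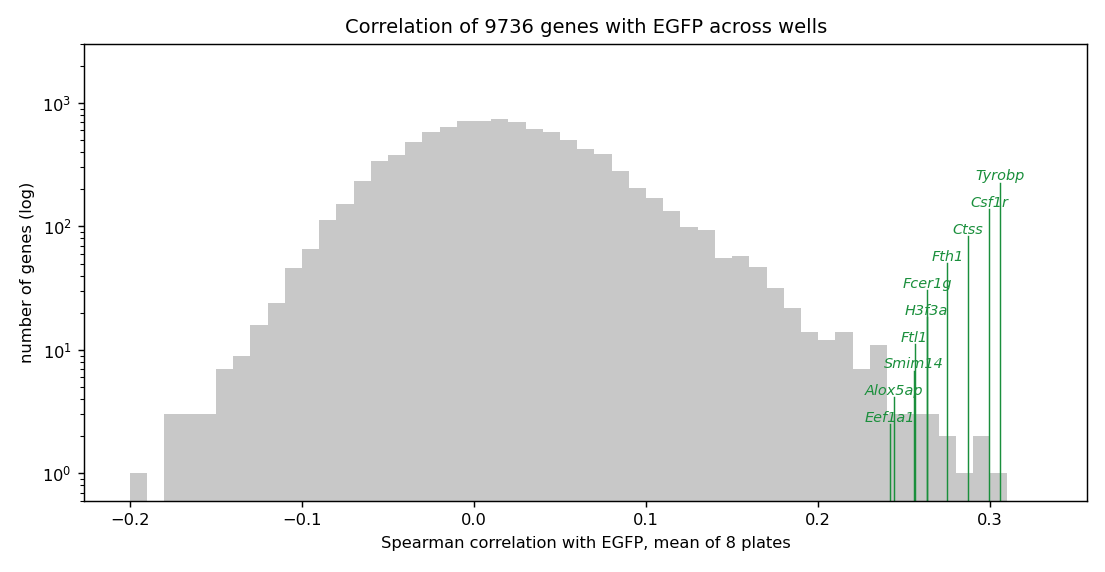
Number of genes (log axis) by their Spearman correlation with EGFP, averaged over the 8 plates, for 9736 genes; green lines mark the 10 genes most like EGFP that have a symbol and are not ribosomal or mitochondrial. Csf1r (0.30) and Tyrobp (0.31) lie at the right end.

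Tyrobp was read at 50 CPM or more in 95.9% of EGFP-high and 74.3% of EGFP-low wells. Its plate means were 947 against 630 CPM on 1A, 1965 against 1547 on 2B, 2024 against 984 on 3C, 1511 against 569 on 4C, 2289 against 999 on 6B and 2082 against 3144 on 7C, high before low. It was higher in EGFP-high wells on 5 of 6 plates and lower on 7C. Ctss was higher on 6 of 6 plates, with EGFP-high means of 4142 to 4881 CPM and EGFP-low means of 1989 to 4183 CPM, a median log2 ratio of 0.78. Fcer1g reached 50 CPM in 96.4% and 83.2% of wells and had a median log2 ratio of 0.62, higher on 5 of 6 plates.

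The 300 bases around the start of Ctss and Fcer1g are shown because both genes followed EGFP and the macrophage factor PU.1 is known to bind sites with the core GAGGAA near Csf1r. Sequences are from RefSeq on GRCm38.p6, from 250 bases before to 50 bases from the start site on, with matches to GAGGAA or its reverse complement TTCCTC in capitals. Ctss is at chr3:95526536-95526835, forward strand, and Fcer1g at chr1:171234300-171234599, reverse strand.
Ctss: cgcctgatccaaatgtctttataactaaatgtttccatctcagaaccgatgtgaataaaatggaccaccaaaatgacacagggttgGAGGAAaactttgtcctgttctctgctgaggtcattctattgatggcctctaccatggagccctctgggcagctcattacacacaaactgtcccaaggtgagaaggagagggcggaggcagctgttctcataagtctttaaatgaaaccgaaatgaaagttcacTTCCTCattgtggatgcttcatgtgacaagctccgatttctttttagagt
Fcer1g: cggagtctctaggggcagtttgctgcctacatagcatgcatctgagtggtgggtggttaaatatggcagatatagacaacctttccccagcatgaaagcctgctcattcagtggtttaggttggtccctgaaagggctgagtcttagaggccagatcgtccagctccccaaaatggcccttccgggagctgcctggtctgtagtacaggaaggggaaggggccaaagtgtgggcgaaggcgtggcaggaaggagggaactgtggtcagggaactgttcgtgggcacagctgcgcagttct

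The Ctss window held 2 matches, 1 on each strand, and the Fcer1g window held none. For the 10 genes most like EGFP, windows on chromosome 18 were not searched, so Csf1r was left out. Of the 10, 7 had a window that was searched, and 2 of these (Ctss and H3f3a) held a match. Among all 27025 genes with a window, 31.3% had a match in at least 1 window. A match describes these letters only, and says nothing of binding in these cells.

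The EGFP-low wells also covered fewer genes. They held a median of 339675 gene reads, against 440702 in EGFP-high wells, but the reads fell on fewer genes: 2776 against 3647.5 genes, and 624 against 1547 genes at 50 CPM or more. The 50 most read genes took 52.5% of the reads in the median EGFP-low well and 37.3% in the median EGFP-high well. Mitochondrial genes took 3.45% and 2.07%. EGFP-middle wells resembled EGFP-high wells in these measures (3717.5 genes, 1480.5 at 50 CPM or more, 37.4% in the top 50). Spike-in RNAs took a larger median share of the reads in EGFP-low than in EGFP-high wells on 5 of the 6 plates (on plate 2B 0.825% against 0.345%, on 4C 5.83% against 2.62%) and a smaller one on plate 1A (0.340% against 0.449%). The part of these differences in the gene results was not tested. Shares of wells in which a single gene reached 50 CPM, given above and below, are read beside the 1547 against 624 genes at that level.

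Split by this measure and pooled over plates, Csf1r-poor wells were most frequent among EGFP-low wells with few covered genes. Of 49 EGFP-low wells with fewer than 600 genes at 50 CPM, 25 were below 100 CPM of Csf1r (51.0%, 36.3 to 65.6%), against 1 of 20 such EGFP-high wells (5.00%, 0.127 to 24.9%). Of 26 EGFP-low wells with 600 or more but under 1000 such genes, 5 were below 100 CPM (19.2%, 6.55 to 39.4%), against 2 of 33 (6.06%, 0.743 to 20.2%). Of 26 EGFP-low wells with at least 1000 such genes, 8 were below 100 CPM (30.8%, 14.3 to 51.8%), against 0 of 141 EGFP-high wells (upper bound 2.58%). Pooled over plates, the share was higher in EGFP-low wells in all 3 strata, and only in the middle one did the counting intervals overlap. Plate 1A held 21 of the 38 EGFP-low wells below 100 CPM, and its median EGFP-low well had 337 genes at 50 CPM or more. The lowest stratum thus leans on plate 1A. The strata were not split by plate, so the order of the strata and the gap between intervals may not hold without it.

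**Figure D4:**
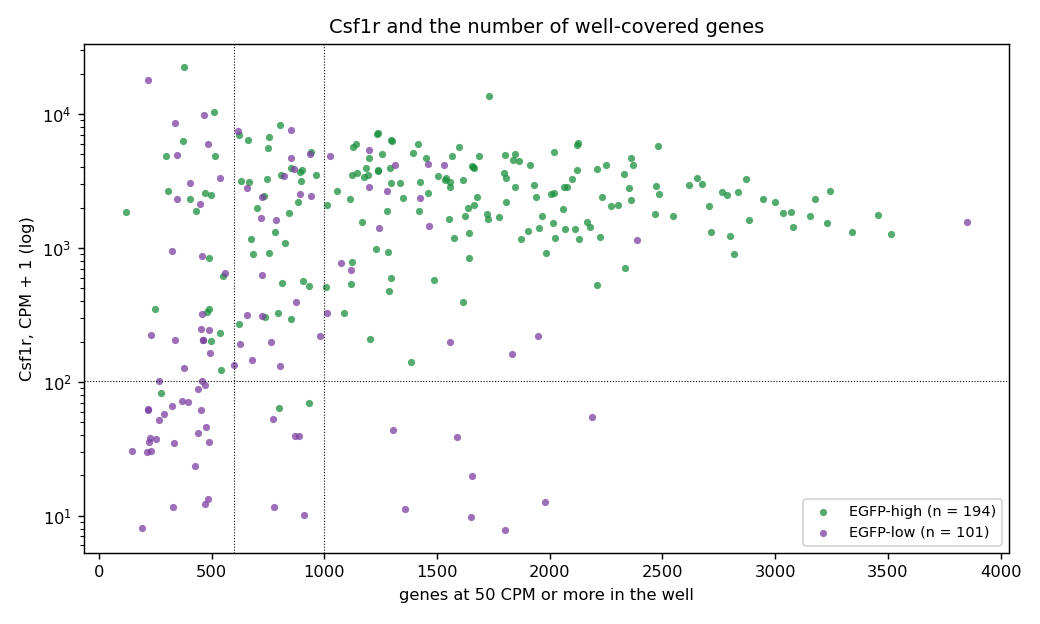
Csf1r (CPM + 1, log axis) against the number of genes at 50 CPM or more in each EGFP-high (green) and EGFP-low (purple) well, with dotted lines at 600 and 1000 genes and at 100 CPM. Among wells with at least 1000 genes, those below 100 CPM of Csf1r are the 8 EGFP-low wells at the lower right.

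The 26 well-covered EGFP-low wells were looked at one by one, a choice made after their values were seen. Of the 8 with little Csf1r, 5 carried genes of type 1 conventional dendritic cells at 100 CPM or more: Irf8, a transcription factor of that lineage, Wdfy4, needed there for cross-presentation, and Naaa, a lysosomal amidase. Batf3, another factor of the lineage, was at that level in 4 of them and at 17.0 CPM in well E1 of plate 5A. The list's surface markers were rarer: Clec9a was at 100 CPM or more in 2 of the 5, Xcr1, Itgae and Cadm1 in 1 each, and well E8 of plate 7C had no read of these 4 genes. Well H6 of plate 6B had 7024 CPM of Irf8, 619 of Batf3, 685 of Wdfy4, 2572 of Naaa and 690 of Kit, but 92.3 of Clec9a and 0 of Xcr1 and Itgae, with 6.87 CPM of Csf1r. Well F8 of the same plate had 5720 CPM of Irf8, 496 of Clec9a (the dead-cell receptor of these cells) and 240 of Xcr1 (their chemokine receptor), with 54.0 CPM of Csf1r. In well E1 of plate 5A, Clec9a stood at 1110, Itgae at 1071 and Wdfy4 at 6851 CPM, with 42.5 CPM of Csf1r.

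Counted over all kept wells, 6 EGFP-low wells, 11 EGFP-high wells and 11 EGFP-middle wells had at least 4 of the 9 type 1 dendritic markers at 100 CPM or more. All 6 EGFP-low wells had little Csf1r (6.87 to 54.0 CPM) and little C1qa (14.8 to 70.9 CPM), a chain of complement C1q made by macrophages. All 11 EGFP-high wells had 1317 to 4724 CPM of Csf1r and 1267 to 9610 CPM of C1qa. On neither gene did these 2 sets overlap, and the marker count alone therefore did not separate them. Cadm1, which kidney macrophages can also express, was at 100 CPM or more in 10 of the 11 EGFP-high and 1 of the 6 EGFP-low wells. Among the EGFP-middle wells, well E6 of plate 6B had 7002 CPM of Irf8, 363 of Clec9a and 57.8 of Csf1r with 85 EGFP reads, and well E3 of plate 7C had 4230 CPM of Irf8 and 165 of Csf1r with 350 EGFP reads. Wells with this dendritic pattern were thus found outside the EGFP-low class too.

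The other 3 of the 8 Csf1r-poor wells differed from these. Well B8 of plate 4C and well A6 of plate 6B carried Cd209a, a lectin of type 2 conventional dendritic cells and some monocyte-derived cells, at 8506 and 3942 CPM. The former also had 3941 CPM of Mgl2 and 1279 CPM of Irf4, and the latter 754 CPM of Flt3, the receptor of a dendritic growth factor. Neither had the whole pattern: the former had no read of Flt3 and had 826 CPM of Fcgr1, and the latter had 11.6 CPM of Mgl2 and 3.31 of Irf4. Neither well had a read of Zbtb46, a factor of conventional dendritic cells, and Ccr2 stood at 1115 and 2646 CPM. Well G7 of plate 7C carried fibrillar collagens, with 6255 CPM of Col1a1, 6060 of Col1a2 and 8690 of Col3a1, and only 8.81 CPM of Ptprc (CD45, the common leukocyte antigen).

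In contrast, 12 of the 26 well-covered EGFP-low wells had 1000 CPM or more of Csf1r. Well C8 of plate 4C had 4127 CPM of Csf1r, 13332 of C1qa, 11426 of C1qb, 4159 of Cx3cr1 (the fractalkine receptor) and 2436 of Fcgr1 (a high-affinity IgG receptor), on 786 Csf1r reads and 3 EGFP reads. Well F11 of plate 3C had 4160 CPM of Csf1r with 1407 of Treml4 and 591 of Ace, markers of patrolling monocytes. Well D12 of plate 2B had 1561 CPM of Csf1r beside 4859 CPM of Emcn and 2868 CPM of Egfl7, genes of endothelium, and 3853 genes at 50 CPM or more. Well B5 of plate 4C had 1136 CPM of Csf1r beside 1179 CPM of Aqp2, a collecting duct water channel, and mitochondrial genes took 33.0% of its reads. The remaining well-covered EGFP-low wells had 160 to 773 CPM of Csf1r. Among them, well A5 of plate 1A, at 220 CPM of Csf1r, carried 7788 CPM of Cd209a, 1142 of Clec10a, 478 of Zbtb46 and 323 of Flt3. It had no read of Irf4 or Itgax, 2945 CPM of Ccr2, 13.2 of C1qa and 1194 of the tubule gene Slc34a1. The others had 1640 to 6029 CPM of C1qa. Doublets were not called, and their part was not tested.

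Over all 33 EGFP-low wells with 1000 CPM or more of Csf1r, on 7 plates, the Csf1r reads ranged from 100 to 14055 (median 1263) and the EGFP reads from 0 to 34 (median 3). The 157 EGFP-high wells of that Csf1r level had a median of 1226 Csf1r reads with 392 EGFP reads. EGFP reads per 100 Csf1r reads had a median of 30.2 in the EGFP-high wells (7.59 to 1190), 10.1 in 123 EGFP-middle wells and 0.223 in the EGFP-low wells (0 to 3.32). The class limits fix the order of these ratios, and both sets were chosen at 1000 CPM or more of Csf1r. Over all wells of the classes, the median was 820.5 Csf1r reads in EGFP-high and 44 in EGFP-low wells.

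Over all genes, the ratio of EGFP-high to EGFP-low means leaned upwards. Of 9736 genes with a mean of at least 5 CPM and reads in at least 10 wells of both classes together, 74.4% had a median log2 ratio above 0, and the median gene stood at 0.66. Changes are therefore read against that shift: Csf1r, at 1.00, lay 0.34 above the median gene. The shift itself moved with the settings. Without the expression filter (22434 genes), the median gene stood at 0 and Csf1r at 1.00. With at least 3 wells in each class (8 plates), the median gene stood at 0.98 and Csf1r lay 0.024 above it. The class means rest on unequal numbers of wells. EGFP-high wells outnumbered EGFP-low wells on every plate except 1A (20 against 38), and the expression filter pooled the wells of both classes. The part of these well numbers in the shift and in the gene counts was not tested. A gene was counted as higher or lower when its median log2 ratio was at least 1 in size and its sign was the same on all 6 plates. By this rule 429 genes were higher, 4.41% of those tested, and 18 were lower, 0.185%. Higher genes made up 96.0% of those counted, 84.3% with TMM scaling of summed reads (242 and 45 genes) and 70.7% with DESeq2 size factors (188 and 78 genes), which brought the median gene to 0.22 and 0.083. Csf1r was then at 0.53 and 0.29. In wells with at least 600 genes at 50 CPM or more, Csf1r stood at 0.70 beside 0.66 for the median gene, so there its ratio of means did not set it apart. Without plate 1A, 988 genes were higher and 31 lower, and the median gene stood at 0.79. Without 6B 650 and without 7C 694 were higher, and the number lower was 40 without 2B, 44 without 3C, 57 without 4C, 42 without 6B and 39 without 7C.

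Named by size of the ratio, the most increased genes were read in few wells. Etv5, an ETS transcription factor, reached 50 CPM in 30 EGFP-high wells (15.5%) and 1 EGFP-low well (0.990%). P2ry13, an ADP receptor of myeloid cells, did so in 19 and 0 wells, Tmem170b in 28 and 0, and Prdm1, the transcription factor Blimp-1, in 24 and 1. A count of 0 of 101 wells allows a share of up to 2.97% when 3 counts of the total are taken as the limit, and its exact upper bound is 3.59%. The others of the 15 most increased were Rnf180, Mpv17, Zkscan17, Pi4k2a, Khnyn, Gpr89, Mrpl45, Trappc8, Tvp23b, Trem1 (an amplifier of myeloid inflammation) and Ccr1. All 15 had median log2 ratios of 4.65 to 5.63 on means plus 1 CPM, 1.90 to 3.80 on means plus 10 CPM, and 0.90 to 4.21 with 1 EGFP threshold of 200. With equal weight for each well on the log scale, their differences were 0.55 to 1.36. The ratios depend on the added 1 CPM, because the EGFP-low means of 14 of the 15 were below 10 CPM.

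Ccr1, a receptor of inflammatory chemokines, was the exception, with a mean of 570 CPM in EGFP-high and 22.6 CPM in EGFP-low wells. It reached 50 CPM in 32.0% and 7.92% of wells. Its EGFP-high plate means ran from 61.2 CPM on 7C to 2559 CPM on 1A, and its EGFP-low plate means from 3.09 to 64.5 CPM. The 2 ranges overlapped, while on each plate the EGFP-high mean was the higher one.

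The 15 most decreased genes were Clec1a, Zeb1, Fasn, Zbtb20, Gfpt1, Hectd3, Traf1, Brd3, Puf60, Cyth2, Fnbp4, Metrnl, Camk1d, Pts and Ino80c, from -3.46 to -1.18. Of the 18 genes counted as lower, 10 remained with TMM scaling, but 1 with equal weight for each well and 1 with 1 EGFP threshold of 200. That threshold was run over 8 plates, and at least 3 wells in each class, also over 8 plates, left 1 as well. Hectd3, a ubiquitin ligase gene, also had the lowest named correlation with EGFP (-0.17, negative on 8 of 8 plates) and reached 50 CPM in 4.12% of EGFP-high and 12.9% of EGFP-low wells. Fasn, fatty acid synthase, reached it in 3.61% and 9.90%. Puf60 and Metrnl did so in more EGFP-high wells (29.9% and 20.6%) than EGFP-low wells (16.8% and 9.90%), and with equal weight for each well their differences were 0.020 and 0.28, so their direction turned. Rbmx2, Lamc1, Faf1 and Pan2 had the next lowest correlations, -0.16 to -0.15, and none of them had the same sign of ratio on all 6 plates.

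Ligands and relatives of the receptor showed no common direction. Csf1 and Il34, the ligands, were below the expression limit, at 50 CPM in 2 wells of each class and in 0 and 1 wells. Of the 13 tested genes on the list of receptor relatives and signalling, 1 was higher (Csf1r itself) and 0 lower, beside 4.41% and 0.185% of all genes. Csf1r met the limit of 1 narrowly and fell below it without plate 2B, 4C or 7C (0.99 each). It was also below the limit with at least 50000 gene reads and 1500 genes (0.85) and with at most 20% mitochondrial reads (0.90). The list's median was 0.50 against 0.66 for all genes, with 9 of the 13 above 0. Flt3 and Kit, kinases of the same family that mark dendritic and progenitor cells, had medians of -1.52 and -1.40 and were higher on 2 of 6 plates. Inpp5d, the phosphatase SHIP1 of myeloid signalling, was higher on 6 of 6 plates at 0.58. Dok2, an adaptor under these receptors, had a median of 3.83 but ranged from -4.83 to 6.06.

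Of transcription factors that act on the Csf1r locus, 8 of 13 tested had a median above 0, beside 74.4% of all genes. None of the 13 was counted as higher or lower, beside 4.41% and 0.185% of all genes. Their median was 0.48 against 0.66 for all genes, or -0.18 against 0.083 with DESeq2 size factors. Spi1, which encodes PU.1, had a median of 0.52 (from -2.59 to 0.79) and reached 50 CPM in 66.5% of EGFP-high and 44.6% of EGFP-low wells. Irf8 had plate means of 66.7 against 325 CPM on 1A, 393 against 428 on 2B, 343 against 122 on 3C, 649 against 612 on 4C, 377 against 2089 on 6B and 115 against 767 on 7C. Its EGFP-low mean was higher on 4 of 6 plates, though it reached 50 CPM in more EGFP-high wells (53.6%) than EGFP-low wells (29.7%). The high EGFP-low mean on 6B includes wells H6 and F8 described above.

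Where Fc receptors and their adaptors lay relative to all genes depended on how wells were weighted. All 9 genes of the list had a median above 0, the lowest being Fcgr3 at 0.49, beside 74.4% of all genes, and 6 of the 9 exceeded the median of all genes. The list's median was 0.80 against 0.66 for all genes, 0.022 against 0.083 with DESeq2 size factors, and 0.63 against 0.65 for the same genes in wells with at least 600 covered genes. With equal weight for each well on the log scale it was 1.55 against 0.25, but on that scale general haematopoietic genes stood at 1.51 and housekeeping genes at 0.69 too. Fcgr1, the high-affinity IgG receptor, reached 50 CPM in 60.8% of EGFP-high and 25.7% of EGFP-low wells. Fcgr2b, the inhibitory IgG receptor, did so in 77.8% and 50.5%. Over all genes, the median well had 1547 genes at that level in EGFP-high and 624 in EGFP-low wells. Both receptors were higher on 6 of 6 plates with medians of 0.92, below the limit of 1. Of the 9 genes of the list, 1 was counted as higher and 0 as lower, beside 4.41% and 0.185% of all genes. Syk, the kinase that these receptors signal through, had a median of 0.80 and was higher on 5 of 6 plates.

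Complement and phagocytosis genes had a median of 0.75 over 11 tested genes against 0.66 for all genes, with 1 higher and 0 lower, beside 4.41% and 0.185% of all genes. The median was 0.019 against 0.083 with DESeq2 size factors and 1.38 against 0.25 with equal weight for each well on the log scale. The higher one was Msr1, a scavenger receptor, at 50 CPM in 31.4% of EGFP-high and 10.9% of EGFP-low wells. C1qa and C1qc, chains of complement C1q, were higher on 6 of 6 plates with medians of 0.75 and 0.70, below the limit of 1. Axl, a receptor for dying cells, had a median of 1.38 and was higher on 5 of 6 plates. Cd36 had a median of -0.13.

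Antigen presentation genes lay below all genes on the ratio of means and above them with equal weight for each well. The 8 genes of MHC class II presentation had a median of 0.20 against 0.66 for all genes, -0.40 against 0.22 with TMM and -0.54 against 0.083 with DESeq2 size factors, so their direction turned with the scaling. With equal weight for each well on the log scale it was 0.56 against 0.25. On the ratio of means, only 1 of the 8 (Ctss) exceeded the median of all genes. H2-Ab1 had means of 17240 CPM in EGFP-high and 16917 CPM in EGFP-low wells and reached 50 CPM in 94.8% and 99.0% of wells. Cd74, the invariant chain, had 26589 and 23497 CPM. Of the list, only Ctss was higher on 6 of 6 plates.

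All 14 lysosomal genes had a median above 0, the lowest being Cd68 at 0.11, beside 74.4% of all genes, and 9 of the 14 exceeded the median of all genes. Their list median was 0.80 against 0.66 for all genes, 0.10 against 0.083 with DESeq2 size factors and 1.29 against 0.25 with equal weight for each well on the log scale. None met the rule. Npc2, a cholesterol carrier of the lysosome, was higher on 6 of 6 plates at 0.98, as was Ctsz at 0.82. All 12 cell cycle genes also had a median above 0, with a list median of 1.34, or 1.08 and 0.79 under the 2 other scalings. None of these 12 met the rule, and they were read in few wells, Mki67 at 50 CPM in 14.4% of EGFP-high and 2.97% of EGFP-low wells.

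**Figure D5:**
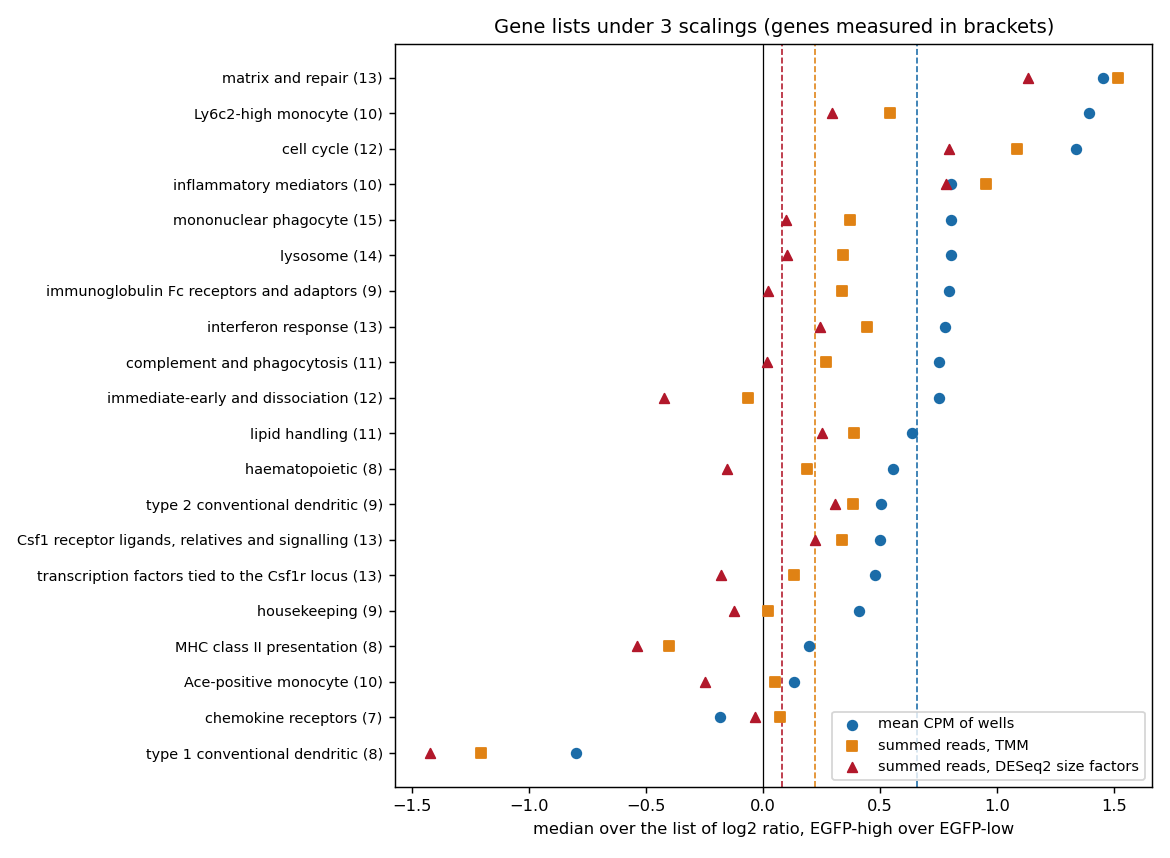
Median log2 ratio of EGFP-high over EGFP-low wells for each gene list under 3 scalings, with dashed lines at the median of all genes under the same scaling (0.66, 0.22 and 0.083). The type 1 dendritic list lies lowest, at -0.80, -1.20 and -1.42.

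The remaining lists are read beside a median of 0.66 for all genes, of which 4.41% were counted as higher. Of these lists, matrix and repair genes had the highest median, 1.45 over 13 genes, with none counted as higher, since the single plates scattered widely (Spp1, osteopontin, from -8.43 to 4.37). Inflammatory mediators had a median of 0.80 over 10 genes with 1 higher (Tnf), and interferon genes 0.78 over 13 with none. With equal weight for each well on the log scale these 2 medians were 0.21 and 0.14, below 0.25 for all genes, while the other lists of this paragraph lay above it. In wells with at least 50000 gene reads and 1500 genes, the interferon median was 0.36 against 0.64 for all genes. Lipid genes had a median of 0.63 over 11 with 1 higher (Pparg). Haematopoietic genes had 0.55 over 8 with 1 higher (Rac2, at 1.08), a median that was -0.15 with DESeq2 size factors. Housekeeping genes had a median of 0.41 over 9 and immediate-early genes 0.75 over 12, with none counted, and both turned below 0 with DESeq2 size factors (-0.12 and -0.42). The immediate-early median was also below 0 with TMM (-0.064) and, for the same genes, in wells with at least 600 covered genes (-0.15). Chemokine receptors had a median of -0.18 over 7, with Ccr1 and Ccr2 higher, and this median turned above 0 with summed counts (0.39), with TMM (0.071) and for the same genes in wells with at least 600 covered genes (0.52). Ccr2, the receptor that brings monocytes from the marrow, had a median of 1.47 and means of 1529 and 744 CPM.

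The marker lists say which cells the wells could hold, but the classes differed in coverage. The median well had 1547 genes at 50 CPM or more in EGFP-high, 1480.5 in EGFP-middle and 624 in EGFP-low wells. The part of this difference in the shares below was not tested. All kept wells had reads of at least 8 of the 14 phagocyte markers other than Csf1r, and at least 5 of these were at 100 CPM or more in 89.7% of EGFP-high (84.5 to 93.6%), 92.1% of EGFP-middle (87.2 to 95.6%) and 68.3% of EGFP-low wells (58.3 to 77.2%). The summed level of the 15 phagocyte markers ranged from 1130 to 78017 CPM in EGFP-high and from 289 to 93630 CPM in EGFP-low wells. Within wells of at least 5 such markers at 100 CPM, the Csf1r ratio had a median of 0.83, beside 0.74 for all genes, over the 5 plates that kept 5 wells of both classes. At least 3 markers at 100 CPM were found for Ly6c2-high monocytes in 21.1% of EGFP-high and 3.96% of EGFP-low wells, for Ace-positive monocytes in 15.5% and 9.90%, for type 1 dendritic cells in 29.9% and 8.91%, and for type 2 dendritic cells in 16.5% and 3.96%. At least 4 type 1 dendritic markers were at that level in 5.67% of EGFP-high (2.86 to 9.92%) and 5.94% of EGFP-low wells (2.21 to 12.5%), so the larger share in EGFP-high wells was seen at 3 markers and not at 4. The ratio of means for that list had a median of -0.80. The mean summed level of its markers was 1133 CPM in EGFP-high and 1477 CPM in EGFP-low wells, and the median summed level 882 and 177 CPM.

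By the median ratio, beside 4.41% of all genes higher and a median of 0.66 over all genes, 2 of 10 Ly6c2-high monocyte genes were higher (Ly6c2 and Ccr2, list median 1.39, 0.29 with DESeq2 size factors, and 0.18 against 0.25 for all genes with equal weight for each well on the log scale), as were 2 of 9 type 2 dendritic genes (Clec10a and Tnip3, list median 0.51, below that of all genes), 0 of 10 Ace-positive monocyte genes (0.13, or -0.25 with DESeq2 size factors) and 0 of 8 type 1 dendritic genes (-0.80, or 0.19 in wells with at least 600 covered genes). No list had a lower gene. Markers of T cells and natural killer cells did not reach 3 genes with a read in any EGFP-high or EGFP-low well, and 6 of 10 T cell genes had no read at all. Tubule epithelium markers were read, with at least 3 genes, in 11.3% of EGFP-high and 8.91% of EGFP-low wells, and endothelial markers in 8.76% and 8.91%.

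Near the class limits, values ran on without a gap. The 3 wells just below the upper limit had 493 to 499 EGFP reads per 1000000 gene reads and 831 to 1895 CPM of Csf1r, and the 3 just above it 512 to 515 and 1781 to 6783 CPM. The 3 wells just below the lower limit had 44.2 to 46.5 EGFP reads per 1000000 gene reads and 34.4, 325 and 5432 CPM of Csf1r, and the 3 just above it 50.2 to 52.4 and 75.4, 19.0 and 43.7 CPM.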

How the data were processed

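Smart-seq2 makes full-length cDNA from single sorted cells in plate wells; the protocol text of this sample repeats the droplet workflow, so the steps for the wells are not given in the sources used here. The authors deposited raw read counts per gene and well, by featureCounts as the table's name has it; GRCm38, mm10, Cell Ranger and STAR stand in the submitters' processing notes without a role. Reads carry no molecular identifiers. The table held 51912 genes, of which 28532 matched a symbol in the droplet gene list, 92 spike-ins and EGFP; spike-ins and EGFP stayed out of the gene totals. The main ratio is log2 of (EGFP-high mean CPM + 1) over (EGFP-low mean CPM + 1) on each plate with at least 5 wells of both classes, and its median over plates. Named genes were the list members, the 15 highest and 15 lowest ratios with the same sign on all 6 plates and at least 20 CPM in the higher class, and the 10 highest and 5 lowest correlations, leaving out ribosomal, mitochondrial and unnamed genes. The classes, lists and rules were chosen with earlier results of these data known. Alternatives used edgeR 4.0.16 (TMM) and DESeq2 1.42.0 (size factors) for scaling only, with Python 3.11.15, numpy 2.4.6, pandas 2.3.3 and scipy 1.17.1. Shares have exact Clopper-Pearson 95% intervals. The ratio was run on simulated counts in which both classes shared the same expression profile apart from set changes. That run does not cover the unlike gene coverage of the classes in these wells. No count test was run, since there is 1 sample. Some genes of the lists are not reported here by name.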

Additional observations from a re-analysis of the deposited data

How the results depend on the processing

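Csf1r stayed higher in EGFP-high wells under every alternative run. Its log2 ratio was 0.29 with DESeq2 size factors and 2.52 as the mean of log2 values, both outside 1 SD of the plate values; leaving out 1 plate gave 0.99 to 1.01. The number of genes higher was 175 with 1 EGFP threshold of 200, 242 with TMM, 188 with DESeq2 and 525 to 988 with 1 plate left out. The number lower was 2, 45, 78 and 31 to 57 in the same order, 1 with at least 3 wells in each class and 2 with the mean of log2 values. The threshold of 200 was run over 8 plates, so the sign rule covered more plates too. At least 3 wells in each class, also over 8 plates, gave 299 higher genes. Of the 429 genes, 232 remained with summed counts alone, 178 with TMM, 141 with DESeq2, 81 with the mean of log2 values and 79 with a threshold of 200. Of the 18, 8, 10, 14, 1 and 1 remained in the same order, and 1 with at least 3 wells in each class. Under the mean of log2 values Puf60 (0.020) and Metrnl (0.28) turned. All kept wells passed 3, 5 and 8 phagocyte markers with a read, so that stratum equalled all wells; with 5 markers at 100 CPM (chosen after seeing the data), 846 genes were higher and 39 lower over 5 plates. The mean correlation of EGFP with Csf1r ran from 0.27 to 0.37 with 1 plate left out. EGFP-low wells without Csf1r made up 0% by reads, 15.8% after thinning to 20000 reads, 3.96% at a limit of 10 CPM and 37.6% at 100 CPM. No more Csf1r reads than the highest left-out well of the plate, a shallow well and no background, were found in 49.5% of EGFP-low and 9.79% of EGFP-high wells. At least 3 phagocyte markers were at 100 CPM in 93.1% of EGFP-low wells, against 100% with a read. The causes were not tested. A high limit of 1000 with 0 EGFP reads as low was not run, since no plate kept 5 EGFP-low wells. No paired analysis was possible because all wells are of 1 sample, so no samples can be paired; the classes were compared within plates.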
